A study of Mus musculus with 2 samples.

Results

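A small group of mouse colon γδ T cells carried transcripts of many interferon-stimulated genes at once, and these cells are described here across their genes and across normal and tumour tissue. Members were chosen by their readout: among barcodes with at least 500 genes, at least 1000 unique molecular identifiers (UMIs, each standing for 1 captured transcript) and at most 10% mitochondrial UMIs, a member held at least 1 UMI of 3 or more of the 6 genes Ifit1, Ifit3, Isg15, Usp18, Rsad2 and Oasl2, and at least 1 UMI of Trdc or Cd3e. The rule found 106 members among 21535 cells. The libraries were 10x Genomics single-cell 3' libraries, 1 of normal colon tissue (labelled IEL) and 1 of colon tumor (labelled TIL), both labelled as gamma-delta T lymphocytes of C57BL/6J mice of 18 to 20 weeks. The labels name no sort, tumour model or number of animals, and the protocol text speaks of tumour tissue for both libraries. With 1 library per tissue there was no replicate check, so members were compared with the remaining cells of their own library that passed the same filter and held a UMI of Trdc or Cd3e.

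Type I and type III interferons are cytokines released by infected or nucleic acid-sensing cells. They bind surface receptors (Ifnar1 with Ifnar2 for type I) whose kinases Jak1 and Tyk2 activate a complex of transcription factors, Stat2 and Irf9 among them, that binds a promoter element, the interferon-stimulated response element, and switches on a shared set of genes. Interferon-γ (Ifng), which γδ T cells can make themselves, acts through a different receptor and induces an overlapping set, including the guanylate-binding proteins. In the gut the same genes form a first line of defence against viruses, in epithelium and in the lymphocytes lodged in it.

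Depth was 69414155 UMIs over 9398 barcodes in IEL and 94953893 over 13245 in TIL, of which 9128 and 12407 barcodes passed the filter. A total of 33 barcodes occurred in both libraries, and 2 of them were members in either. UMIs without replicate libraries are counts of molecules from a few cells, so all 95% intervals given cover counting error only and take UMIs or cells as independent.

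In IEL 49 cells were members, 0.537% of those past the filter (exact Clopper-Pearson interval 0.397 to 0.709), and in TIL 57 were, 0.459% (interval 0.348 to 0.595). These intervals overlapped. Without the barcodes bearing markers of other types, described below, the shares were 0.527% in IEL (48 of 9111, interval 0.389 to 0.698) and 0.362% in TIL (44 of 12158, interval 0.263 to 0.486), further apart and with intervals that still overlapped. The all-member shares were nearer when each cell was thinned to 2000 UMIs before the rule was applied, when 11 of 9052 cells in IEL (0.122%, interval 0.0607 to 0.217) and 15 of 12275 in TIL (0.122%, interval 0.0684 to 0.201) met it. Shallower cells were left out of the thinned count. Most members had no reserve beyond the threshold: 34 of the 49 IEL members and 33 of the 57 TIL members held exactly 3 of the rule genes. Cells with 4 numbered 10 in IEL and 12 in TIL, cells with 5 numbered 5 and 10, and 2 TIL cells held all 6.

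The label of the cells was checked against defining markers before any gene was compared. Among the TIL members, 13 of 57 held UMIs of at least 4 of 12 myeloid-defining genes (Lyz2, Csf1r, the C1q chains and others), with 78 to 2672 such UMIs per barcode and a median total of 13736 UMIs against 6101 in the other 44. In IEL, 1 of 49 members held UMIs of at least 4 of 10 epithelial genes, 129 UMIs in all. The rule's T cell gate was met by these 14 barcodes, but they do not carry the profile of a γδ T cell alone. Among TIL barcodes that held neither Trdc nor Cd3e, 7 of 136 also reached 3 rule genes, and all 7 had myeloid markers; in IEL it was 0 of 48, which allows a share of up to 6.25% by a floor of 3 counts. Values are therefore given for all members and again without barcodes that meet either marker limit, which leaves 48 IEL and 44 TIL members against 9020 and 12054 remaining cells. The limits of 4 genes were chosen after the data were seen.

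In these 92 cells the γδ receptor chain Trdc was detected in 48 of 48 IEL and 44 of 44 TIL members, and Cd3e in 44 and 37. The rule required a UMI of Trdc or Cd3e, so these counts are a description and no check of the label. Under the same gate the remaining IEL and TIL cells held Trdc at 97.2% and 99.1%, and Cd3e at 95.2% and 91.5%. Trac, the constant gene of the αβ receptor, was also detected in 37 of 48 IEL members (77.1%) and in 77.9% of the remaining IEL cells, and in 15 of 44 TIL members (34.1%) and 38.0% of the remaining TIL cells. Members thus carried Trac UMIs about as often as their neighbours in each library. The 12 myeloid-defining genes summed to 0 UMIs in 47 of the 48 IEL members and to 1 in the other, and Lyz2, Csf1r, Cd14 and Adgre1 were at 0 there. In the 44 TIL members they summed to between 0 and 14 UMIs, with Csf1r, Cd68, Cd14 and Adgre1 at 0. The 13 TIL members with at least 4 of these same genes had been left out. Low TIL sums therefore follow in part from that limit and are no check of the label. Over the longer list of 15 myeloid genes the TIL members stood at 549.7 CPM (UMIs of a gene per 1000000 UMIs of the group) against 251.7 CPM in the remaining cells, and 2 of 4 measured genes, Fcer1g and S100a8, were at least 2-fold higher. B cell and plasma cell genes summed to 55.5 against 279.5 CPM in TIL, where of 4 measured 3 were lower, Igkc among them (0 against 171.0 CPM), and 1 higher, Ighm (42.3 against 17.9 CPM). Few remaining TIL cells held the lower genes (Igkc 4.87%, Igha 3.97%, Jchain 0.863%), and 6.82% of members held Igha, so nothing is read from the lower calls. In IEL the B cell and plasma cell genes summed to 207.2 against 165.3 CPM, with 0 of 3 measured higher or lower. Dendritic genes summed to 280.1 against 353.8 CPM in TIL and 229.4 against 167.8 CPM in IEL, with 0 of 4 measured genes higher in each. Over all genes 5.09% were higher in TIL members and 2.4% in IEL members, and 5.07% and 1.39% were lower. The part of such transcripts in the results below was not tested.

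The 6 rule genes chose the cells, so their levels are a description with no test. Isg15, a ubiquitin-like protein that is joined to other proteins, stood at 342.8 CPM in the 48 IEL members and 43.9 CPM in the remaining IEL cells, and at 726.8 CPM in the 44 TIL members and 46.5 CPM in the remaining TIL cells. Ifit1, which binds viral RNA ends, stood at 291.1 against 9.16 CPM in IEL and 259.0 against 2.55 CPM in TIL. Its relative Ifit3 stood at 123.3 against 0.955 CPM in IEL and 111.0 against 0.531 CPM in TIL. Isg15 was thus the rule gene with the most remaining cells positive, and Ifit3 the one closest to absent outside the members.

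Rsad2, the radical enzyme viperin, was at 185.0 against 10.5 CPM in IEL and 89.9 against 1.99 CPM in TIL. Usp18, which takes Isg15 off proteins and damps the receptor, was at 91.3 against 2.28 CPM in IEL and 58.1 against 0.630 CPM in TIL. Oasl2, of the oligoadenylate synthetase family, was at 9.87 against 1.10 CPM in IEL and 79.3 against 5.05 CPM in TIL. IEL members were therefore picked with almost no help from Oasl2, which 4 of 48 held, while 22 of 44 TIL members held it. Isg15 was held by 47 of 48 IEL members and 42 of 44 TIL members, and by 24.6% and 20.2% of the remaining cells.

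The stretch of promoter that interferon signalling is known to use could be read for 4 of the rule genes. The window was the 250 bases before the start site in RefSeq (GRCm38.p6), searched on both strands for the letters GAAANNGAAA (TTTCNNTTTC on the other strand, overlapping matches counted), a short form of the response element. The lines below show, for each gene, the match nearest the start with its flanks, 5′ to 3′ on the gene's strand, with matched bases in capitals, because these 4 genes were selected by the rule and share the element.
Ifit1, chr19:34640789-34640828, plus strand: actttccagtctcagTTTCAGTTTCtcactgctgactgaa
Ifit3, chr19:34583392-34583431, plus strand: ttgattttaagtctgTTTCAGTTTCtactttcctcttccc
Isg15, chr4:156200860-156200899, minus strand: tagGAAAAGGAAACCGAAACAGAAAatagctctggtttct
Rsad2, chr12:26456548-26456587, minus strand: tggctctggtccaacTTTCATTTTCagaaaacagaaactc
The match ended 75 bases before the start in Ifit1, 112 in Ifit3, 56 in Isg15 and 110 in Rsad2, and the Isg15 window held 3 overlapping matches. Oasl2, Cmpk2, Oasl1 and Irf7 had no match in this window. Usp18, Rtp4 and Zbp1 were not matched to an entry.

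Across genes, the same letters stood in 978 of 32851 promoters of that length (2.98%), and, per gene, in 3.82% of the genes measured in IEL and 3.67% of those measured in TIL that had an entry. They stood in 23 of the 72 interferon-stimulated genes outside the rule with a promoter entry (31.9%). Among genes counted as higher in the members, by the rule given below, they stood in 27 of 111 in IEL (24.3%) and 37 of 232 in TIL (15.9%), and in 23 of 59 (39.0%) that were higher in both and outside the rule for members. Among genes counted as lower they stood in 1 of 69 in IEL (1.45%) and 4 of 228 in TIL (1.75%). A match describes the letters and is not a binding site.

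How far the rest of the interferon programme went with the 6 rule genes was read from 91 interferon-stimulated genes outside the rule, in 5 lists. Their share of a cell's UMIs had a median of 0.850% in the 48 IEL members (lowest 0.230%, highest 3.43%) against 0.346% in the remaining IEL cells. In the 44 TIL members the median was 1.10% (lowest 0.291%, highest 3.38%) against 0.268% in the remaining TIL cells. Groups overlapped in both libraries. The share was above the 99th percentile of the remaining cells (0.735% in IEL, 0.969% in TIL) in 29 of 48 IEL and 23 of 44 TIL members. It was at or below the remaining cells' median in 7 of 48 IEL members and 0 of 44 TIL members. In the other direction, 38 of 9020 remaining IEL cells and 67 of 12054 remaining TIL cells lay above their library's member median.

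**Figure D1:**
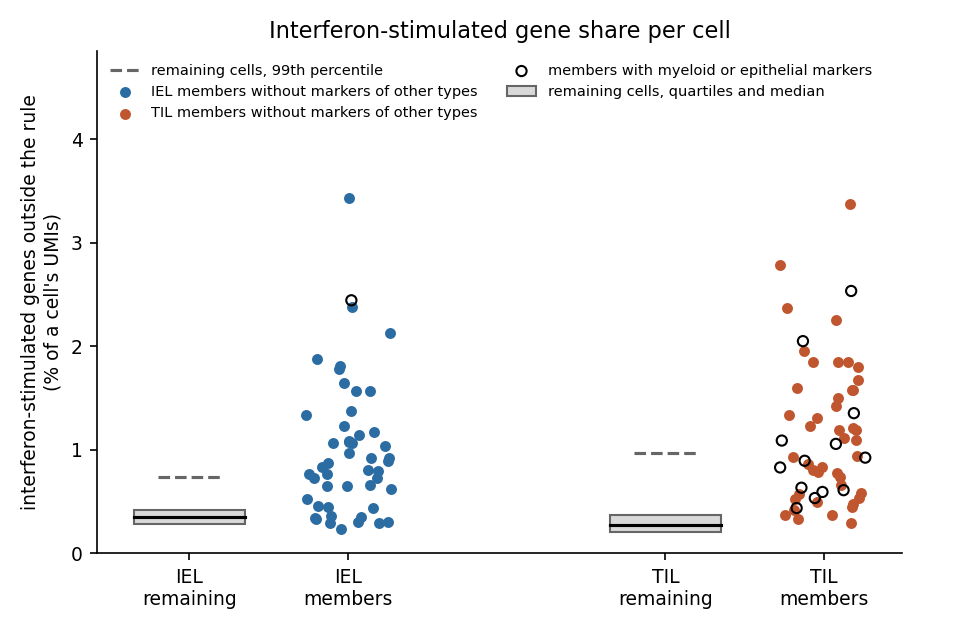
Share of each cell's UMIs (y axis, %) from 91 interferon-stimulated genes outside the rule, in remaining cells (grey box: quartiles, black line: median, dashed line: 99th percentile) and in each member (points) of the IEL and TIL libraries. Member medians without barcodes bearing markers of other types (open circles) were 0.850% in IEL and 1.10% in TIL, with members spread from the remaining cells' level to above 3%.

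The share was higher in cells that held more rule genes. In IEL it had medians of 0.341%, 0.352% and 0.368% in cells with 0, 1 and 2 rule genes, then 0.692% with 3, 1.28% with 4 and 2.25% with 5 (4 cells). In TIL the medians were 0.260%, 0.292% and 0.440% with 0, 1 and 2 rule genes, then 0.803%, 1.36% and 1.85% with 3, 4 and 5, and 1.45% in the 2 cells with all 6. Just outside the threshold, IEL cells with 2 rule genes were thus close to cells with none, while TIL cells with 2 had an upper quartile of 0.772%, near the median of cells with 3. Depth moved with the number of rule genes in part, and its share in the pattern was not tested: median UMIs were 6727.5, 7115.5 and 7771 in IEL cells with 0, 1 and 2 rule genes and 7064.5 with 3, and 6360, 6851 and 6965 in TIL cells with 0, 1 and 2 and 7809 with 3. Over all members without marked barcodes the median was 7100 UMIs against 6865 in the remaining IEL cells, and 6101 against 6469.5 in TIL.

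**Figure D2:**
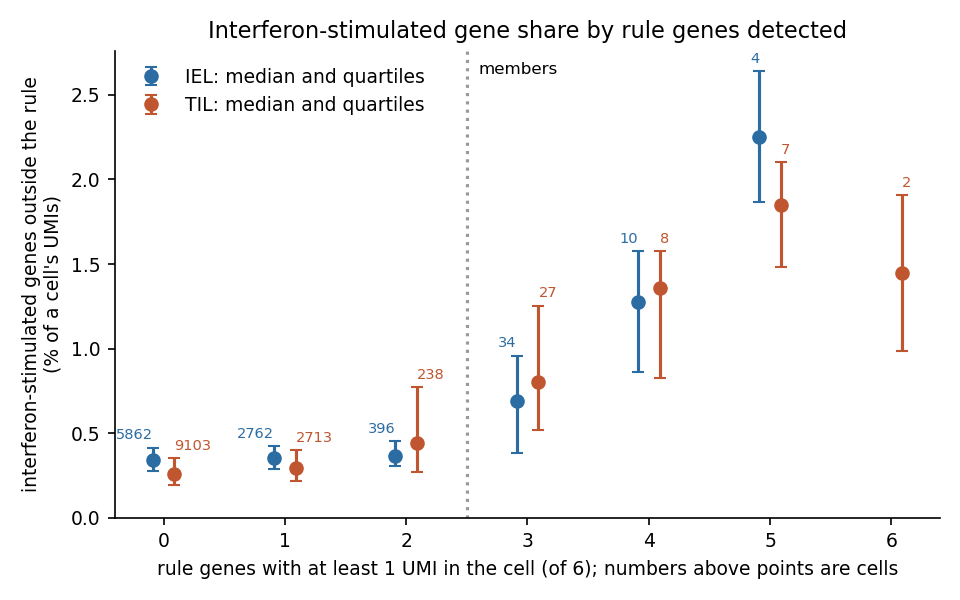
Share of UMIs from interferon-stimulated genes outside the rule (y axis, %) by the number of rule genes detected in a cell (x axis), without barcodes bearing markers of other types; points are medians, bars quartiles and numbers cells. Medians run from 0.341% (IEL) and 0.260% (TIL) with 0 rule genes to 2.25% and 1.85% with 5, and the dotted line marks the rule's threshold.

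Gene by gene, a gene counted as higher or lower where it reached 20 CPM in members or remaining cells, differed by at least 2-fold and had an exact interval of the ratio that excluded 1. In IEL without marked barcodes, 147 of 6134 genes were higher (2.4%) and 85 lower (1.39%). With all 49 members it was 214 of 6222 higher (3.44%) and 86 lower (1.38%). In TIL without marked barcodes, 295 of 5801 genes were higher (5.09%) and 294 lower (5.07%), and with all 57 members 556 of 6031 higher (9.22%) and 322 lower (5.34%). With the 13 myeloid-marked barcodes kept in, 15 of 15 myeloid list genes counted as higher, with summed levels of 23499 CPM in members and 885.0 CPM in remaining cells. Since the rule used the same cells and UMIs, these counts are descriptive, and the ratios that follow are without marked barcodes unless stated.

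Most interferon-stimulated genes outside the rule that could be measured were higher, although most of the genes counted as higher in each library belonged to none of these lists. In IEL 54 of 69 measured were higher and 0 lower, with a median log2 ratio of 1.75 against -0.01 over all genes measured. In TIL 55 of 66 were higher and 1 lower, with a median of 2.28 against -0.14 over all genes. With all members the counts were 55 of 71 in IEL and 56 of 69 in TIL, with medians of 1.77 and 2.03. The median gene in TIL stood 0.14 below 0 on the log2 scale, so TIL ratios read against that point are larger by as much.

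Rtp4, a Golgi chaperone with antiviral activity that was fixed as a marker of these cells but is no rule gene, was at 288.6 CPM in IEL members and 19.5 CPM in the remaining IEL cells. In TIL it was at 103.1 CPM in members and 3.34 CPM in remaining cells. The log2 ratios were 3.89 (interval 3.61 to 4.16) and 4.95 (4.43 to 5.43), and 31 of 48 and 24 of 44 members held a UMI. Thinned to 2000 UMIs, 31.2% of IEL members and 3.82% of the remaining IEL cells held Rtp4, and 18.2% and 0.870% in TIL.

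Most measured sensors of foreign nucleic acid were higher in both tissues. They were 6 of 7 in IEL and 5 of 6 in TIL, beside 2.4% and 5.09% of all genes. Zbp1, which binds Z-form nucleic acid and can start cell death, was at 145.5 against 27.3 CPM in IEL and 253.7 against 32.7 CPM in TIL. The helicases that read viral RNA were higher in both: Dhx58 had log2 ratios of 2.92 in IEL and 4.18 in TIL, Ifih1 of 2.61 and 3.67, and Ddx58 of 1.52 and 2.56. Tmem173, the adaptor STING of the DNA-sensing pathway, differed from these, with a log2 ratio of 0.20 (22.2 against 19.3 CPM) in IEL and -1.42 in TIL (13.2 against 35.4 CPM), where it counted as lower.

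Most measured transcription factors that carry the signal were higher as well. They were 5 of 8 in IEL and 6 of 8 in TIL, beside 2.4% and 5.09% of all genes. Irf7, which amplifies type I interferon production, was at 291.1 against 49.2 CPM in IEL and 216.7 against 25.1 CPM in TIL. Stat2 had log2 ratios of 1.75 and 2.83, and Irf9 of 2.01 and 1.78. Irf1 was at 330.5 against 218.1 CPM in IEL, which did not count as higher, and at 169.1 against 69.9 CPM in TIL, which did. Irf8, more typical of myeloid cells, counted as neither, with log2 ratios of -0.31 and 0.53.

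**Figure D3:**
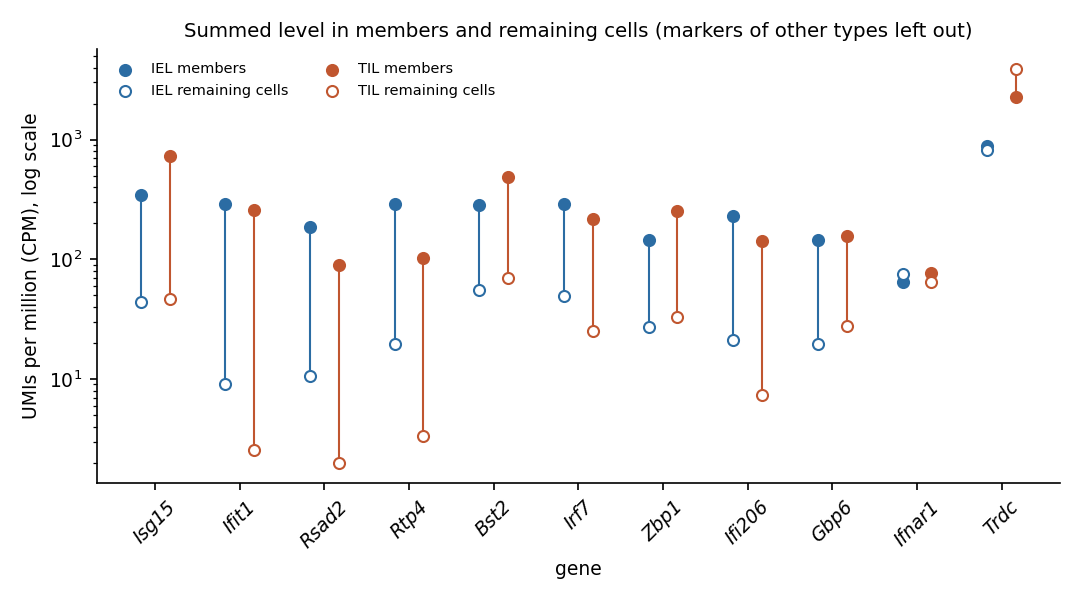
Summed levels (y axis, CPM, log scale) of 11 genes in members (filled) and remaining cells (open) of IEL (blue) and TIL (orange), without barcodes bearing markers of other types. Isg15, Ifit1 and Rsad2 are rule genes, so their gap follows from the choice of cells. Interferon-stimulated genes outside the rule, such as Rtp4 (288.6 against 19.5 CPM in IEL), stood apart in both libraries. The receptor gene Ifnar1 lay within 2-fold, and Trdc was lower in TIL members than in their neighbours.

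Some single antiviral effectors had ratios above 4 on the log2 scale in both libraries. In IEL 25 of 30 measured effectors were higher and in TIL 25 of 29, beside 2.4% and 5.09% of all genes. Their medians were 2.13 and 2.22 on the log2 scale. Cmpk2, a mitochondrial nucleotide kinase encoded next to Rsad2, had log2 ratios of 4.51 (8 cells) in IEL and 5.83 (10 cells) in TIL. Its levels were 27.1 against 1.19 CPM in IEL and 50.2 against 0.884 CPM in TIL. Oasl1 had log2 ratios of 4.25 (14 cells) and 5.44 (6 cells), from 64.1 against 3.38 CPM in IEL and 31.7 against 0.730 CPM in TIL. Oas3, which makes the messenger that activates RNase L, had 2.82 (7 cells) and 4.84 (12 cells). Cmpk2, Oasl1 and Oas3 reached the floor of 20 CPM in members only, so a raised ratio was a condition for measuring them. Bst2, the tetherin that holds budding virus at the cell surface, was at 286.1 against 55.6 CPM in IEL and 488.9 against 70.0 CPM in TIL, and was detected in 37 of 48 and 39 of 44 members. Xaf1, linked to cell death, was at 140.6 against 25.0 CPM in IEL and 79.3 against 6.70 CPM in TIL.

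A few effectors were higher in 1 tissue only by this count, and whether the tissues differ was not tested. Ifi27l2a was at 586.7 CPM in TIL members and 62.0 CPM in remaining TIL cells, while in IEL it was at 46.9 against 26.7 CPM and in 4 member cells. Ly6a, the surface protein Sca-1, had a log2 ratio of 4.74 in IEL, from 37.0 against 1.38 CPM and 5 member cells, and of -0.04 in TIL, where it was at 330.4 against 340.7 CPM. Lgals3bp had ratios of 2.33 in IEL and 0.46 in TIL on the log2 scale. Rnf213, a giant ubiquitin ligase, was higher in both, at 120.9 against 25.3 CPM in IEL and 229.9 against 17.5 CPM in TIL.

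Nuclear DNA-binding proteins of the Ifi200 family and the Schlafen genes were higher for 9 of 11 measured in each library. Among all genes the share was 2.4% in IEL and 5.09% in TIL. Ifi206 was at 231.9 against 21.2 CPM in IEL and 142.7 against 7.40 CPM in TIL. Ifi208 had log2 ratios of 3.28 and 4.51, Ifi213 of 3.59 and 3.96, and Slfn5, a repressor of transcription, of 3.75 and 4.27. Slfn2, needed for T cell quiescence, differed, with log2 ratios of 0.38 in IEL and -0.46 in TIL and a level of 348.2 CPM in the remaining TIL cells.

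Ubiquitin and ADP-ribosylation genes were higher for 9 of 13 in IEL and 10 of 12 in TIL, beside 2.4% and 5.09% of all genes. Their IEL median, 1.34, was the lowest of the 5 lists. Parp14, a mono-ADP-ribosyl transferase, had log2 ratios of 1.98 and 2.32, and Herc6, the mouse ligase for Isg15, of 1.75 and 2.55. Epsti1 was at 389.7 against 254.1 CPM in IEL, a log2 ratio of 0.62 that did not count as higher, and at 274.9 against 60.3 CPM in TIL, a ratio of 2.19.

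Guanylate-binding proteins and immunity-related GTPases, which answer to both interferon types, were higher for 8 of 9 measured in IEL and 10 of 11 in TIL. Beside them, 2.4% and 5.09% of all genes were higher. The median log2 ratios of the list were 1.43 and 2.39. Gbp6 was at 145.5 against 19.6 CPM in IEL and 155.9 against 27.9 CPM in TIL. Gbp9 had log2 ratios of 1.20 and 3.15, and Iigp1, which attacks the vacuoles of parasites, was at 66.1 against 2.78 CPM in TIL and below the measured level in IEL.

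Of the genes counted as higher, 77 were shared by the members of both libraries, which is 52.4% of the IEL genes and 26.1% of the TIL genes. Over all genes measured, 5.09% counted as higher in TIL and 2.4% in IEL. They were 5 rule genes, 45 genes of the interferon-stimulated lists, 6 guanylate-binding protein or immunity-related GTPase genes and 21 others. Some of the 21 are known interferon targets that the lists did not hold, named here after their values were seen: the chemokine Cxcl10 (222.0 against 27.9 CPM in IEL, 340.9 against 46.3 in TIL), the helicase Ddx60 (log2 ratios 2.42 and 3.54), Pml (1.94 and 2.89) and Samd9l (1.43 and 1.99). In IEL 71.1% of the Cxcl10 UMIs came from 1 cell. Genes lower in both libraries numbered 5 (Cd44, Ckb, Gabpb2, Pdcd1 and Stmn1), 5.88% of the IEL genes counted as lower and 1.70% of the TIL ones. That share of the IEL genes is near the 5.07% of all TIL genes that counted as lower, so nothing is read from it.

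**Figure D4:**
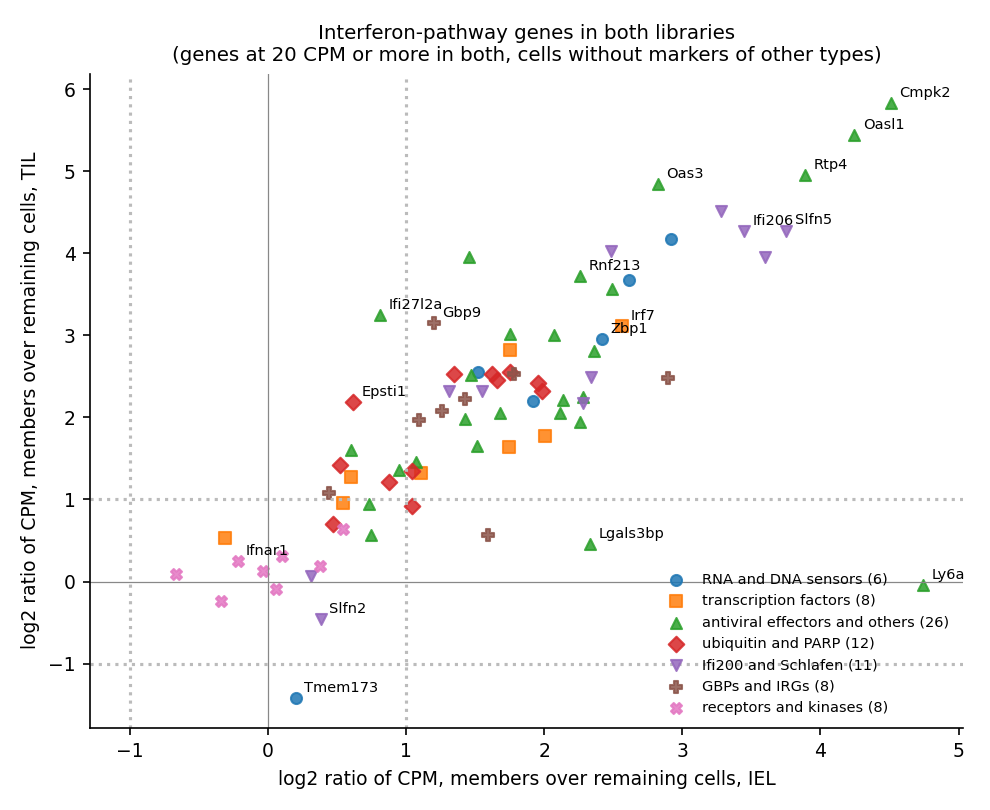
Log2 ratio of members over remaining cells in IEL (x axis) and TIL (y axis) for interferon-pathway genes measured in both libraries, 1 point a gene, marked by list; dotted lines are 2-fold. Most list genes lie beyond 2-fold in both, up to Cmpk2 (4.51 and 5.83), which reached the floor of 20 CPM in members only. The receptors and kinases lie near 0, and Ly6a, Lgals3bp and Ifi27l2a lie off the main band.

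The receptors and kinases upstream of these genes were 0 of 8 higher and 0 lower in each library. Over all genes 2.4% were higher and 1.39% lower in IEL, and 5.09% and 5.07% in TIL, so nothing is read from that count of 0. Ifnar1 was at 64.1 against 74.7 CPM in IEL and 76.6 against 64.6 CPM in TIL. Ifnar2 had log2 ratios of -0.34 (interval -0.94 to 0.20) and -0.24 (-1.08 to 0.48), Jak1 of 0.10 and 0.31, and Tyk2 of 0.37 and 0.19. Of the feedback genes outside the rule, Socs1, which blocks the kinases, was at 101.1 against 85.1 CPM in IEL and 129.5 against 48.9 CPM in TIL, where it counted as higher. Socs3 had log2 ratios of 0.86 and 1.49 and likewise counted only in TIL.

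Transcripts of the ligands were rare. Over all cells past the filter, 20 type I and type III interferon genes together had 11 UMIs from 1 gene in IEL and 34 UMIs from 3 genes in TIL. Ifng was at 115.9 CPM in IEL members and 65.5 CPM in the remaining IEL cells, a log2 ratio of 0.82 (0.38 to 1.24) that missed 2-fold. In TIL it was at 21.1 against 5.62 CPM and counted as higher from 3 member cells.

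Most genes of class I antigen presentation, another target of interferon, did not count as higher. In IEL 1 of 19 measured did, the peptide transporter Tap1 (160.3 against 73.5 CPM), beside 2.4% of all genes, and in TIL 5 of 20, beside 5.09% of all genes. With all members the TIL count was 1 of 20, beside 9.22% of all genes. The list medians were 0.44 and 0.62 on the log2 scale. Ratios were above 1 for 18 of 19 genes in IEL and 18 of 20 in TIL, beside 3011 of 6134 and 2242 of 5801 over all genes. With all members the TIL ratios were above 1 for 13 of 20, beside 2169 of 6031. B2m, the light chain of class I molecules, was at 2721 against 2136 CPM in IEL and 3933 against 3601 CPM in TIL. H2-T22, Nlrc5, the class I transactivator, and the immunoproteasome subunit Psmb10 had log2 ratios of 0.69, 0.84 and 0.19 in IEL and 1.31, 1.41 and 1.10 in TIL. Cd274, the ligand of the inhibitory receptor PD-1, was at 71.5 against 45.7 CPM in IEL and at 58.1 against 21.6 CPM in TIL, where it counted as higher.

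In the T cell lists few genes of the IEL members passed 2-fold, beside 2.4% of all IEL genes higher and 1.39% lower. All 48 held more UMIs of cytotoxic genes (Gzma, Gzmb, Ccl5, Nkg7) than of IL-17 program genes, as did 99.6% of the remaining IEL cells. Ccl5, a chemokine, was at 21434 against 22196 CPM, Gzma at 8912 against 9579 CPM and Gzmb at 5155 against 3681 CPM, the granzymes being proteases that kill target cells. Of 19 measured cytotoxic and type 1 genes 1 was higher, the chemokine Ccl3 (209.7 against 95.2 CPM). Trdc was at 878.1 against 818.5 CPM, Cd8a at 530.3 against 581.0 CPM and Trac at 281.2 against 325.5 CPM. Residence genes were 0 of 11 higher and 0 lower, near those shares of all genes. Heat shock genes were 0 of 10 higher and 1 lower, but 9 of the 10 ratios were above 1: the chaperone gene Hspa1b was at 1258 against 631.0 CPM, just under 2-fold, and was held by 56.2% of members and 34.3% of remaining cells. Its neighbour Hspa1a was at 1332 against 765.9 CPM and Dnajb1, a co-chaperone, at 658.6 against 386.8 CPM. Klf2, a regulator of recirculation, was lower, at 41.9 against 90.5 CPM, and Pdcd1, which encodes PD-1, was lower from 2 UMIs. The Klf2 level rested on 17 member UMIs, and the share of cells with a UMI of it was close, 18.75% of members and 20.1% of remaining cells. Each of the 10 IEL genes with the lowest ratios rested on 1 or 2 member UMIs.

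TIL members differed from their neighbours in more than interferon genes. Of the 44, 30 held more cytotoxic than IL-17 program UMIs (68.2%, interval 52.4 to 81.4), against 42.4% of the remaining cells (41.5 to 43.3), and 13 the reverse (29.5% against 54.6%). The classes are ranges of a score and not types, and 5 of the 44 members and 13.5% of the remaining cells lay within 2 UMIs of the cut. With all 57 members the shares were 68.4% and 29.8%. Il17a, the cytokine of the second group, was at 1736 CPM in members and 4418 CPM in remaining cells, and was held by 56.8% and 81.8%. Il17f was at 15.9 against 233.3 CPM, yet 11.4% of members and 11.5% of remaining cells held a UMI of it. Il22 was at 0 UMIs against 59.4 CPM, a log2 bound of -2.91 from a floor of 3 UMIs. Only 1.63% of remaining cells held Il22, too few for its absence from 44 members to be read. The growth factor Areg was at 2122 against 5609 CPM. Of 15 measured IL-17 type genes 9 were lower and 1 higher, beside 5.07% and 5.09% of all genes. The 9 include Il22 and Il17f, with the limits just given. Among the 5 IL-17 program genes used for the classes, 3 were lower and 1, 5830411N06Rik, was higher. It was at 55.5 against 26.2 CPM and was held by 20.5% of members and 5.93% of remaining cells. Trdc, with log2 ratio -0.77, and the segment gene Trdv4, with -1.48, had smaller levels in members, and of these only Trdv4 passed 2-fold and counted as lower. A single cell gave 50.9% of the members' Areg UMIs.

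Cytotoxic and homing genes stood the other way. Of 16 measured cytotoxic and type 1 genes 7 were higher and 2 lower in TIL members, beside 5.09% and 5.07% of all genes. Among the 7 were Ifng, with 62.5% of its member UMIs in 1 cell, and Gzmc, described below. Ccl5 was at 3774 against 1528 CPM, Nkg7, of cytotoxic granules, at 578.8 against 188.1 CPM, and Fasl, a death ligand, at 44.9 against 11.9 CPM, while Gzma (log2 ratio 0.14) and Gzmb (-0.18) were neither. Cd8a was at 145.4 against 63.8 CPM and its partner Cd8b1 at 39.6 against 4.57 CPM, from 9 and 7 of 44 members. Single cells weighed much in these levels, with 56.4% of the Cd8a, 53.3% of the Cd8b1 and 38.9% of the Ccl5 member UMIs in 1 cell. Gzmc, at 845.7 CPM, had 99.4% of its member UMIs in 1 cell, and Hspa1a, a heat shock gene, all in 1 cell.

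Genes of lymph node homing and recirculation were higher for 6 of 8 measured in TIL and 0 of 4 in IEL, beside 5.09% and 2.4% of all genes. Klf2 was at 589.4 CPM in TIL members and 142.9 CPM in remaining TIL cells. Ccr7, a chemokine receptor for entry into lymph nodes, was at 187.6 against 59.9 CPM, S1pr1, which guides exit from tissue, at 100.4 against 32.6 CPM, and Tcf7 at 118.9 against 32.8 CPM. Thinned to 2000 UMIs, Ccr7 was held by 34.1% of TIL members and 6.71% of the remaining cells, and Klf2 by 43.2% and 16.8%. Without thinning the shares were 47.7% and 12.2% for Ccr7 and 63.6% and 32.4% for Klf2. A cell with 0 UMIs of a gene may still express it, so these are shares of cells with a UMI.

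The makeup of the TIL members moved with these lists, so the comparison was repeated inside the cytotoxic class, with 30 members. The median over interferon-stimulated genes was 2.09 on the log2 scale there, against 2.28 in all 44. Klf2 had a log2 ratio of 1.57 there, Ccr7 of 1.19 and Tcf7 of 1.33. Nkg7 went from 1.62 to 1.05 and Ccl5 from 1.30 to 0.69, which no longer reached 2-fold. Il17a had -1.55 and Areg -0.98. The class was cut with Il17a, Ccl5 and Nkg7 themselves, so their values inside it are a description of the cut.

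**Figure D5:**
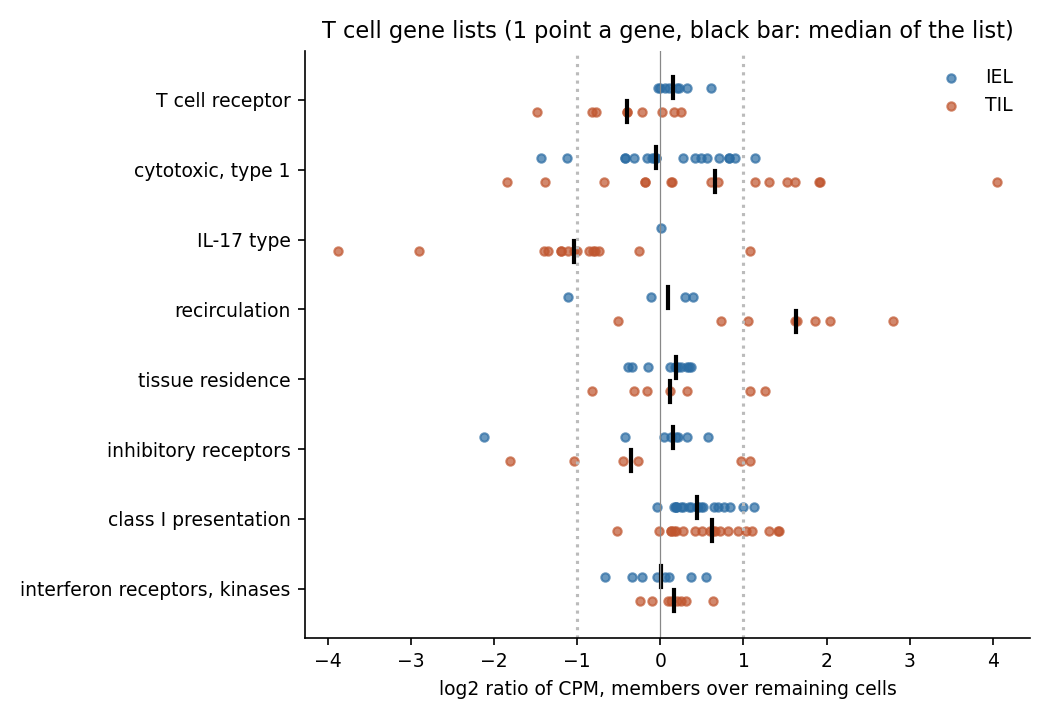
Log2 ratio of members over remaining cells (x axis) for genes of T cell lists (rows), 1 point a gene measured, IEL in blue and TIL in orange, black bars at list medians, without barcodes bearing markers of other types. IEL medians lie between -0.05 and 0.44, while in TIL the recirculation list has a median of 1.64 and the IL-17 list of -1.04.

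Inhibitory receptors showed no common direction. Pdcd1 was at 264.3 CPM in TIL members and 542.1 CPM in remaining TIL cells and counted as lower, as did Havcr2, which encodes TIM-3, at 34.4 against 120.2 CPM. Lag3 had log2 ratios of 0.13 in IEL and -0.26 in TIL, and Ctla4 of 0.04 and -0.45. Of the list, 0 of 8 measured were higher and 1 lower in IEL, and 1 of 6 higher and 2 lower in TIL. Over all genes 2.4% were higher and 1.39% lower in IEL, and 5.09% and 5.07% in TIL.

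Across tissues the values were set side by side, with 1 library each and no test, and the same rule chose the members of both. Over 72 such genes measured in members the median log2 ratio of TIL over IEL was -0.28 in members and -0.86 in remaining cells, beside -0.18 and -0.12 over all genes. By the same rule 8 of these genes counted as higher in TIL members and 7 in IEL members, among 6249 genes of which 7.94% were higher in TIL members and 12.7% higher in IEL members. Rtp4 was lower in TIL members than in IEL members by 1.49 on the log2 scale, while Isg15 was 1.08 higher and Ifi27l2a 3.65 higher.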

How the data were processed

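Single-cell 3' RNA libraries of 1 normal colon (IEL) and 1 colon tumor (TIL) sample were read as the deposited gene by barcode matrices, which hold UMI counts, made with Cell Ranger 6.1.1 against mm10 per the submitters' processing notes; the matrix headers name the same version. How cells were called is not given in the sources used here. No doublet caller was run and no doublets were removed: barcodes with UMIs of at least 4 of 12 myeloid or 4 of 10 epithelial genes were marked, and results are given with and without them.

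Counts were summed over members and over remaining cells and divided by summed UMIs (CPM). Ratios carry exact conditional 95% intervals. For a gene at 0 in a group, 3 UMIs were used in its place as a bound. The groups are 1 library each, so no p-value was computed and no comparison has replicates. Shares carry Clopper-Pearson intervals. The ratio script was tested on simulated data, where counting noise alone also gave some calls among genes at few UMIs, so the number of genes lower in IEL is not read as a result.

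Named genes were the 15 highest and 10 lowest genes called, the rule genes with Rtp4, up to 4 of each list with the largest ratios, and a fixed list of T cell and interferon genes. The text names only some of them. Bst2, Xaf1, Ifi27l2a, Rnf213, Lgals3bp, Tmem173, Irf1, Irf8, Slfn2, Epsti1, B2m, Ighm, Igkc, S1pr1, Cd44, Ckb, Gabpb2, Cxcl10, Ddx60, Pml, Samd9l, Itgb3, Rab27a and Plcl2 were picked after their values were seen. Members and lists were chosen with earlier results of these data known. Promoters came from RefSeq (GRCm38.p6). Python 3.11.15, NumPy 2.4.6, SciPy 1.17.1, pandas 2.3.3 and Matplotlib 3.10.9 were used. Results for some genes of the lists are not reported here.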

Additional observations from a re-analysis of the deposited data

Results flagged for a closer look

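Of 5183 genes measured in both libraries, 4 counted as lower in the members of one tissue and higher in those of the other, without barcodes bearing markers of other types; the difference was not tested. In TIL 5.09% of all genes counted as higher and 5.07% as lower, and the 2 IEL lower genes that were higher in TIL are 2 of 85, so this number of opposite calls is not read as a finding. Klf2, a regulator of recirculation, had log2 ratios of members over remaining cells of -1.11 in IEL and 2.04 in TIL. In IEL the share of cells with a UMI of Klf2 was close, 18.75% of members and 20.1% of remaining cells. Plcl2 had -1.10 in IEL and 1.30 in TIL. Itgb3, an integrin chain, had 1.34 in IEL and -2.03 in TIL, and Rab27a, which docks lytic granules, had 1.40 and -1.84, both from 4 member UMIs in TIL.

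Outside the cells compared, 5.15% of the TIL barcodes with neither Trdc nor Cd3e (7 of 136, interval 2.09 to 10.3) held UMIs of at least 3 rule genes, and all 7 carried myeloid markers.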

How the results depend on the processing

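The main values below are over all members, and the number of cells and the depth limit all of them: a member group of about 50 cells gives many genes fewer than 10 UMIs. No paired analysis was possible because each tissue has 1 library. The cause of each change was not tested.

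With at least 2 rule genes the member share was 4.89% in IEL and 2.51% in TIL, with 20 and 263 genes higher, 0 and 11 lower, and interferon-stimulated medians of 0.48 and 1.23. With at least 4 it was 0.164% and 0.193%, with 450 IEL genes higher and an IEL median of 2.47. Requiring Trdc without Trac gave 0.131% and 0.298%, with 487 IEL genes higher. The rule at 2000 UMIs gave 0.122% in each, with 553 IEL genes higher and medians of 2.61 and 2.82. Weighting cells equally gave 182 and 549 genes lower. Leaving out all cells with UMIs of other types gave 34 IEL genes lower, 361 TIL genes higher and a TIL median of 2.65. Setting the median gene ratio to 1 gave 653 TIL genes higher and 182 lower, against 556 and 322. A floor of 5 CPM gave 363 and 985 genes higher, and a floor of 50 CPM gave 104 and 302 higher and 15 and 125 lower. Without marked barcodes 295 TIL genes were higher, and 281 in the cytotoxic class alone. The median over interferon-stimulated genes stayed above 0 in every alternative run.

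Named genes changed sign as follows, in log2 ratio. In IEL, with 2 rule genes, Cd44 was at 0.10, Stmn1 at 0.86 and Ckb at 0.10. With 4, Rab27a was at -0.21. Stmn1 was at 0.10 with Trdc and no Trac and at 0.13 without deep cells. At 2000 UMIs Ccl3 was at -1.07 and Pdcd1 at 0.69. Without other-type UMIs Ccl3 was at -1.05, Pdcd1 at 0.16, Ckb at 0.039 and Gabpb2 at 0.24. In TIL, with 4 rule genes, Gzmc was at -2.36 and Hspa1a at -2.18. Gzmc was at -0.49 with Trdc and no Trac, -0.95 at 2000 UMIs and -2.73 without deep cells. Hspa1b was at -0.38 with 4 rule genes, -0.12 without deep cells and -1.13 without other-type UMIs, where Igkc, at 0 member UMIs and so at the floor, was at 2.93. Ighm was at -0.10 without marked barcodes in the cytotoxic class alone. Ccl3 was at -0.10 without marked barcodes and -0.15 in the cytotoxic class alone, where Il22, with 0 member UMIs and so set to the floor of 3, was at 0.16. Of the values for named genes under alternatives, 1237 of 1453 in IEL and 1249 of 1471 in TIL kept their direction and side of the 2-fold limit. These totals pool unlike alternatives, and some could change little. Requiring Trdc kept all 49 IEL members, with 91 of 91 values kept in IEL and 92 of 92 in TIL. With 2 rule genes 43 of 91 and 64 of 92 were kept.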

Other observations

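Interferon transcripts themselves could be counted over all cells past the filter. In IEL the 11 UMIs of type I and III interferon genes came from Ifnz. In TIL there were 19 UMIs of Ifnz, 13 of Ifnb1 in 7 cells and 2 of Ifnab. Ifng stood at 66.1 CPM over all IEL cells and 5.55 CPM over all TIL cells.

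Among all TIL barcodes with myeloid markers, 20 of 224 (8.93%, interval 5.54 to 13.5) held UMIs of at least 3 rule genes.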
